A study of Gallus gallus with 3 samples.

Results

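Galectins are a family of lectins, proteins that bind sugar chains, and 4 of them were read here by gene symbol, LGALS1, LGALS2, LGALS3 and LGALS8, among 15675 rows of a chicken expression table. They were chosen from the FPKM of these same pools, because LGALS2 was abundant and nearly constant, so its level and evenness are given as a description with no test. The samples were 3 RNA pools of jejunal mucosa, taken from breeder hens of the Leuang Hang Kao chicken at 28 weeks of age. The hens were kept singly under thermoneutral conditions at 23 °C, and each pool joined RNA from 4 of 12 hens drawn from an arm of 25. They are named control pools 1, 2 and 3 here, and an arm exposed to 36 °C for 6 h was not analysed here. Values are FPKM, fragments scaled to transcript length and library size, summarised as mean ± SD (n = 3 pools). That SD reflects pooled RNAs and does not give the variation from hen to hen. With a single group there is nothing to test against, and sequencing depth is unknown.

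All galectins share a carbohydrate recognition domain that binds beta-galactosides, above all the N-acetyllactosamine units of glycoproteins and glycolipids. They are made in the cytosol without a signal peptide and reach the cell surface, the lumen and the matrix by an unconventional route, where they cross-link glycoproteins. By build, galectin-1 and galectin-2 are prototype galectins with a single binding domain, galectin-3 is the chimera type with a long flexible tail, and galectin-8 is a tandem-repeat type with a pair of domains. In mammals galectin-2 is known mainly from the epithelium of the gut, galectin-1 from connective tissue, muscle and vessels, and galectin-3 from epithelia and macrophages.

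The resting mucosa held transcripts of all 4 galectins read here, with the prototype LGALS2 far above the other members. Summed over the 4 genes, galectin FPKM were 7913.07, 7982.43 and 7545.79 in pools 1, 2 and 3, or 0.830% ± 0.0206 of all FPKM. LGALS2 made up 83.9% ± 2.86 of that sum, LGALS3 14.2% ± 3.52, LGALS1 0.986% ± 0.608 and LGALS8 0.949% ± 0.135. The sum leaves out LGALSL and CG-16, the only 2 with a row among 16 other galectin-type symbols sought, aliases included. The summed level was lowest in pool 3, where LGALS3 was lowest and LGALS1 was highest.

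**Figure D1:**
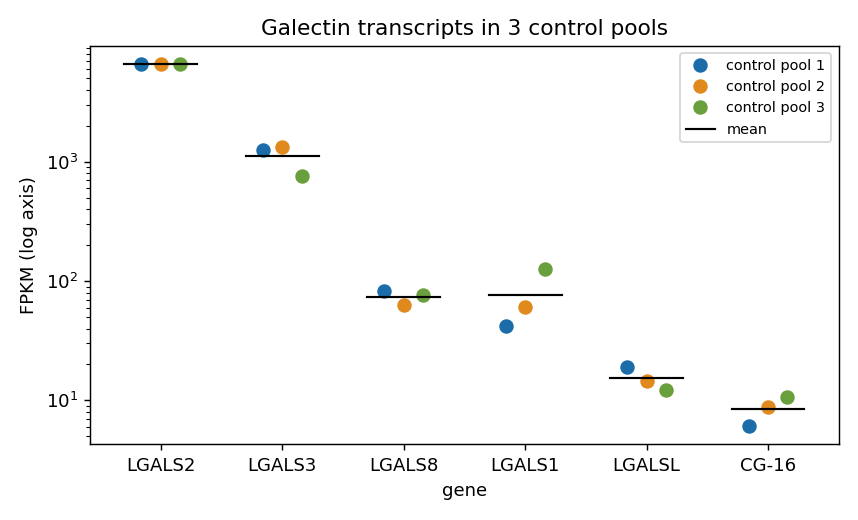
FPKM (log axis) of the 4 galectins and of the 2 further galectin-type genes in each control pool, with points for pools and bars for means. LGALS2 lies near 6550 in every pool, LGALS3 lies between 765.80 and 1324.42, and the order of LGALS8 and LGALS1 differs between pools.

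LGALS2, the prototype galectin of the gut epithelium in mammals, measured 6538.19, 6534.39 and 6576.88 FPKM in pools 1, 2 and 3. The pools were almost level, with the highest 1.01 times the lowest, and the mean was 6550 ± 23.5. It ranked 10 among all genes by mean, and 11, 11 and 9 within the pools. Its neighbours in rank were RPL27 and RPS12 above, and RBP2 and RPL36A below, of which 3 encode ribosomal proteins and RBP2 is the retinol carrier of the enterocyte. RBP2 went from 7876.46 FPKM in pool 1 to 4097.73 in pool 3, with an SD of 0.51 on the log2(FPKM + 1) scale. RPL27, the most even of these 4, had an SD of 0.078 on that scale, and LGALS2 one of 0.0052. None of 41 genes within 2 times its mean had a smaller SD, and neither did any of the 165 other genes averaging 1000 FPKM or more, whose median SD was 0.13. Over 11569 genes averaging 1 FPKM or more, 12 had a smaller SD, and the most abundant of these had a mean of 562 FPKM. A scaling factor moves every gene of a pool alike on the log2 scale, and such a move is large beside this SD. After rescaling by the median ratio over genes, which divides pools 1, 2 and 3 by 0.956, 1.004 and 1.05, the SD of LGALS2 was 0.063, and 19.0% of the genes within 2 times its mean were more even. On the deposited scale without pool 1 that share was 10.9%, at an SD of 0.0066, and without pool 3 the SD was 0.00059.

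LGALS1, the other prototype galectin among the 4 members, showed the widest spread of them. It was at 41.80, 60.19 and 126.48 FPKM in pools 1, 2 and 3, a mean of 76.2 ± 44.5. Pool 3 stood apart above the other pools, at 3.03 times the level of pool 1. Its rank among all genes was 2447 in pool 1 and 855 in pool 3. On the log2(FPKM + 1) scale its SD was 0.80, larger than that of 98.7% of 1914 genes within 2 times its mean, and 0.36 without pool 3. In the RefSeq gene table the symbol LGALS1 is a synonym of a pair of genes, LGALS1A, with the alias CG-1B, and LGALS1B, with the aliases C-16 and CG-16. The expression table has a separate row under CG-16, at 6.09, 8.82 and 10.60 FPKM, a mean of 8.50 ± 2.27. The LGALS1 row was taken for LGALS1A on that ground alone, and related galectin genes may share reads. Both rows had their lowest value in pool 1 and their highest in pool 3, an order shared by 39.2% of the 11570 genes averaging 1 FPKM or more.

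LGALS3, the chimera galectin, was the next most abundant after LGALS2. It was at 1250.94, 1324.42 and 765.80 FPKM in pools 1, 2 and 3, a mean of 1114 ± 304 and rank 157 by mean. Pools 1 and 2 lay close together and pool 3 lay below both, with the highest pool 1.73 times the lowest. Its SD of 0.43 on the log2(FPKM + 1) scale exceeded that of 93.8% of 144 genes within 2 times its mean. That spread rests on pool 3, and without it the SD was 0.058 and exceeded that of 33.3% of such genes.

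LGALS8, the tandem-repeat galectin that binds glycans exposed on damaged endosomes in human cells, was at 82.14, 63.43 and 76.63 FPKM. Its mean was 74.1 ± 9.61, and the pools differed by at most 1.29 times, with pool 2 the lowest. Its SD of 0.19 exceeded that of 64.8% of 1957 genes of similar level, or 24.0% without pool 2, where the SD was 0.070. In the reference annotation of assembly GRCg7b, the gene EDARADD overlaps LGALS8. EDARADD was at 5.64 ± 0.538 FPKM, and the strand setting of the counting is not given in the sources used here. No gene overlapped the other members in that annotation. LGALSL, a galectin-related gene, was lower, at 19.12, 14.56 and 12.16 FPKM, a mean of 15.3 ± 3.54, and was highest in pool 1.

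The order of the 4 levels was the same in all pools except at its lower end. On the log2(FPKM + 1) scale the difference LGALS2 minus LGALS3 was 2.38, 2.30 and 3.10 in pools 1, 2 and 3, a mean of 2.60 ± 0.44. As ratios of FPKM these were 5.23, 4.93 and 8.59. LGALS3 minus LGALS8 was 3.86 ± 0.53 and LGALS3 minus LGALS1 was 3.97 ± 1.21, each above 0 in all 3 pools. LGALS2 exceeded LGALS8 by 6.46 ± 0.19 and LGALS1 by 6.56 ± 0.80. LGALS1 minus LGALS8 was -0.96, -0.074 and 0.72, a mean of -0.11 ± 0.84, so LGALS1 was the lower of the pair in pools 1 and 2 and the higher in pool 3. These neighbours in the order did not differ beyond their spread.

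The galectins also differed in which pool was high, and the cell type markers of the tissue differed between the same pools. All 15 measured enterocyte markers had a mean of at least 1 FPKM, with a sum of 66202, 58134 and 23008 FPKM in pools 1, 2 and 3, led by FABP1, APOA1, FABP2 and RBP2. EPCAM, which marks epithelium, was at 2061 ± 147 FPKM, and the epithelium list of 13 genes, 12 of at least 1 FPKM, summed to 4959, 4257 and 4230. That sum is led by EPCAM and KRT20, and its members did not move together. Of the 12, 6 were highest in pool 1 and 4 in pool 3, against 24.8% and 52.0% of all genes of at least 1 FPKM. Goblet markers, 9 of 9 measured at 1 FPKM or more, summed to between 1744 and 2065. Markers of deeper tissue were detected too. Over the whole table, 11570 of 15675 rows averaged at least 1 FPKM. Fibroblast and stroma markers (15 of 15) summed to 307, 551 and 897 FPKM, smooth muscle markers (12 of 12) to 455, 806 and 1320, and endothelial markers (8 of 10) to 98.7, 140 and 234. Macrophage and dendritic markers (13 of 15) summed to between 3489 and 3551, T and NK lymphocyte markers (11 of 12) to between 819 and 1027, B and plasma cell markers (10 of 11) to between 14905 and 30916, and crypt and proliferating markers (9 of 10) to between 297 and 518. No measured marker was listed at 0 in every pool. In pooled bulk tissue, fewer cells of a type and less RNA per cell cannot be told apart.

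**Figure D2:**
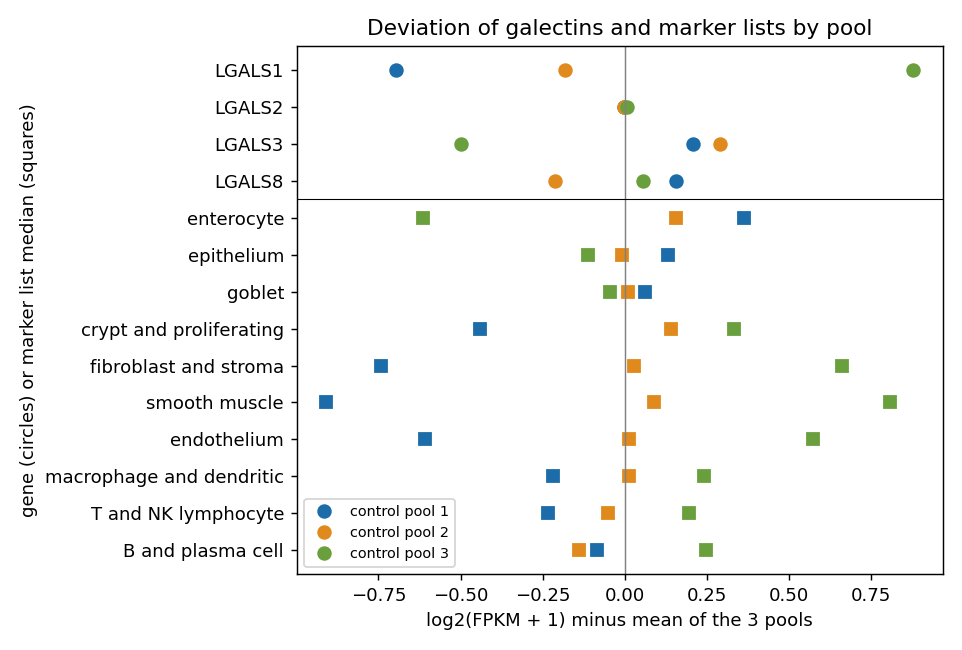
Deviation of each galectin (circles) and of the median member of each marker list (squares) from the mean of the 3 pools, in log2(FPKM + 1) units, coloured by pool. LGALS1 lies low in pool 1 and high in pool 3, as do the medians of the stroma, smooth muscle, endothelium, crypt, macrophage and T and NK lists, while LGALS3 and the enterocyte median lie low in pool 3 and LGALS2 lies near 0 throughout.

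LGALS1 deviated from its mean over pools by -0.70, -0.18 and 0.88 in pools 1, 2 and 3 on the log2(FPKM + 1) scale. The median fibroblast and stroma marker deviated by -0.74, 0.029 and 0.66, the median smooth muscle marker by -0.91, 0.090 and 0.81, and the median endothelial marker by -0.61, 0.014 and 0.57. Other lists ran the same way by less, with medians of -0.44, 0.14 and 0.33 for crypt and proliferating markers, -0.22, 0.013 and 0.24 for macrophage and dendritic markers, and -0.23, -0.051 and 0.19 for T and NK lymphocyte markers. The median B and plasma cell marker deviated by -0.085, -0.14 and 0.25, lowest in pool 2. Over all 11570 genes of at least 1 FPKM the medians were -0.065, 0.0045 and 0.069. The fibrillar collagen gene COL3A1 stood at 47.64, 114.31 and 189.60 FPKM, and the intermediate filament VIM at 42.87, 55.07 and 88.07. As a percentage of the summed stroma markers, LGALS1 was 13.6, 10.9 and 14.1 in pools 1, 2 and 3, so the highest share was 1.29 times the lowest, against 3.03 times for its FPKM. It was as steady against endothelial markers, at 1.27 times, and smooth muscle markers, at 1.28. Each of these sums was lowest in pool 1 and highest in pool 3, an order shared by 39.2% of the 11570 genes. For the other lists the highest share ran from 1.46 times the lowest for B and plasma cell markers to 8.71 times for enterocyte markers. Most of the B and plasma cell sum is IGLL1, at 13360, 16361 and 27244 FPKM in pools 1, 2 and 3. As a percentage of the summed epithelium markers LGALS1 was 0.843, 1.41 and 2.99. The part that tissue makeup has in the spread of LGALS1 was not tested.

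LGALS3 deviated by 0.21, 0.29 and -0.50, and the median enterocyte marker by 0.36, 0.16 and -0.62. All 15 enterocyte markers were lowest in pool 3, where 27.6% of all genes of at least 1 FPKM were lowest. As a percentage of the summed enterocyte markers LGALS3 was 1.89, 2.28 and 3.33, highest in the pool where its FPKM was lowest. That sum is led by FABP1 and APOA1, whose highest pool was 4.60 and 3.39 times the lowest. Over the 15 markers this figure ran from 1.34 for ANPEP to 4.61 for APOA4, and for LGALS3 it was 1.73. The percentage therefore depends on which markers are summed. As a percentage of the summed epithelium markers it was 25.2, 31.1 and 18.1. The median macrophage and dendritic marker deviated by -0.22, 0.013 and 0.24, with pool 3 the highest. The part of tissue makeup in the level of LGALS3 was not tested.

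LGALS2 kept level while the enterocyte markers did not. It was 9.88%, 11.2% and 28.6% of their sum in pools 1, 2 and 3, a sum led by FABP1 and APOA1. Against the summed epithelium markers it stood at 132%, 153% and 155%, the highest 1.18 times the lowest. That steadiness was not particular to epithelium. The figure was 1.02 times for macrophage and dendritic markers and 1.18 for goblet markers. For the other lists it ran from 1.25 for T and NK lymphocyte markers to 2.91 for fibroblast and stroma markers. The macrophage and dendritic sum is led by CD74, at 3008 ± 67.0 FPKM, and the goblet sum by AGR2, at 1502 ± 218. The median macrophage and dendritic marker was less even, deviating by -0.22 in pool 1 and 0.24 in pool 3. LGALS8 deviated by 0.16, -0.21 and 0.057, and none of the 10 marker lists had its lowest median in pool 2 and its highest in pool 1.

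**Figure D3:**
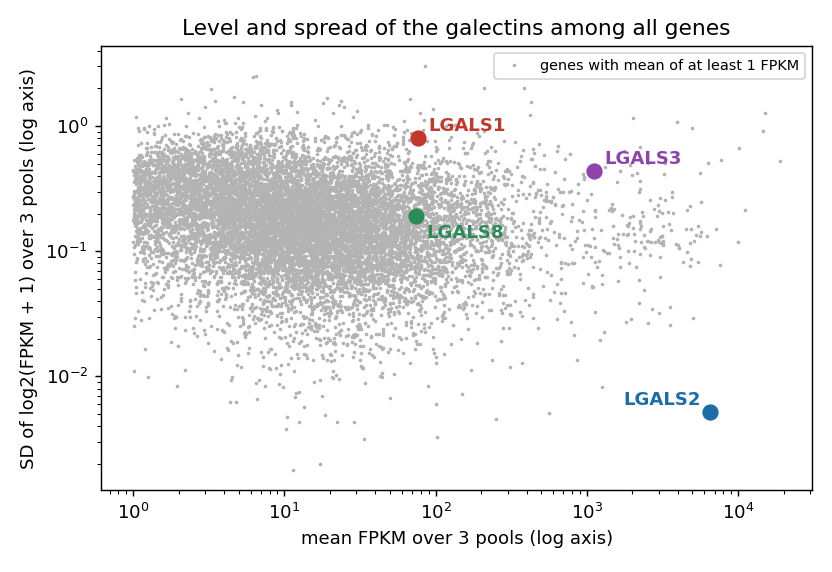
SD of log2(FPKM + 1) over the 3 pools against mean FPKM, both on log axes, for every gene averaging 1 FPKM or more (grey) and the 4 galectins (coloured). LGALS2 lies at the lower edge for its level with an SD of 0.0052, and LGALS1 and LGALS3 lie near the upper edge with SDs of 0.80 and 0.43.

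Genes with the most similar profile were sought among 6567 others averaging 10 FPKM or more, by the Euclidean distance between deviations over the 3 pools on the log2(FPKM + 1) scale. With 3 pools a close profile is common for an even gene, and 1129 genes lay within 0.1 of LGALS2. Nearest to it were SCAF4, TOR1A and the proteasome subunit PSMB4, at distances of 0.0034, 0.0040 and 0.0048. For LGALS3, 23 genes lay within 0.1. Nearest were the connexin GJB1 at 36.36, 37.61 and 21.93 FPKM, the basolateral bile acid exporter subunit SLC51A at 330.16, 336.65 and 197.24, and CYP2AC1, a cytochrome P450, at 84.07, 92.56 and 51.81. For LGALS1, 3 genes lay within 0.1, the extracellular superoxide dismutase SOD3 at 7.66, 10.81 and 24.13 FPKM, the fatty acid elongase ELOVL5 at 8.59, 11.92 and 27.34, and the immediate early factor EGR1 at 12.58, 16.86 and 36.17. For LGALS8, 75 lay within 0.1, led by LOC101751423, the clathrin uncoating kinase GAK and DNLZ. Among the galectins themselves LGALS2 and LGALS8 were nearest, at 0.27, and LGALS1 and LGALS3 farthest apart, at 1.71.

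Genes next to the galectins on the chromosome all stood below them. Most genes of any kind did so, as LGALS8, the lowest of the 4 members by mean, ranked 1472 among all 15675 rows. LGALS2, LGALS3 and LGALS1 ranked 10, 157 and 1444. In the order of assembly GRCg7b, LGALS2 lies between GGA1, a Golgi coat adaptor, at 17.1 ± 0.251 FPKM and CDC42EP1, an effector of the GTPase CDC42, at 3.38 ± 1.63. LGALS1A lies between UTS2RL at 4.78 ± 0.220 and PDXP, a pyridoxal phosphatase, at 5.01 ± 0.371. LGALS3 lies between the mitotic gene DLGAP5 at 8.46 ± 1.23 and MAPK1IP1L at 26.9 ± 1.33. LGALS8 lies between HEATR1, of ribosome production, at 4.59 ± 0.767 and the oxidoreductase ERO1B at 10.04 ± 0.747.

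The enzymes that build galectin ligands were at moderate levels. Of 27 measured genes of N-acetyllactosamine synthesis, 26 had a mean of at least 1 FPKM, against 11570 of all 15675 rows. Their median was 27.4 FPKM, against 12.5 over all genes of at least 1 FPKM. All 27 were below the mean of LGALS8, which itself ranked 1472 among all 15675 rows, so most genes lay below it. The highest were the N-glycan branching enzymes MGAT1 at 68.0 ± 11.7 and MGAT2 at 43.8 ± 5.16, the chain-extending B3GNT3 at 50.9 ± 8.43 and the mucin core enzyme GCNT3 at 42.8 ± 11.9. MGAT5, which makes the branch known in mammals to carry galectin-3 ligands, was at 14.52, 13.74 and 14.44 FPKM in pools 1, 2 and 3. Among the galactosyltransferases that complete the unit, B4GALT4 was at 41.7 ± 1.23 and B4GALT1 at 6.89 ± 0.615. By pool, 15 of the 26 had their highest value in pool 1 and 13 had their lowest in pool 3, against 24.8% and 27.6% of all genes.

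Genes that cap these chains with sialic acid or fucose had a median of 23.1 FPKM over the 13 of 17 measured with at least 1 FPKM. Over all 17 it was 7.09. Of all 15675 rows, 11570 reached 1 FPKM, with a median of 12.5, so the share of capping genes reaching it was near the background. The ganglioside enzyme ST3GAL5 led at 270 ± 40.0, the only one above LGALS1, which ranked 1444 among all 15675 rows by mean. ST6GAL1, whose product is known to block the binding of galectin-1 in mammals, was at 39.3 ± 3.05. ST6GALNAC1, a mucin sialyltransferase, was at 92.85, 33.18 and 85.67 FPKM, with pool 2 low, and the fucose carrier SLC35C1 at 57.4 ± 1.49.

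Glycoproteins known to bind galectins in mammals had a median of 11.7 FPKM over the 22 of 27 measured with at least 1 FPKM, and 8.30 over all 27. Over all 15675 rows, 11570 reached 1 FPKM, with a median of 12.5, so this list was near the background. The lysosomal membrane protein LAMP1 led at 485 ± 58.1, followed by BSG at 96.8 ± 7.14, CD47 at 95.3 ± 20.8 and the integrin chain ITGB1 at 73.9 ± 13.2. By pool, 15 of the 22 were highest in pool 3, against 52.0% of all genes. The matrix partner FN1, fibronectin, was at 19.45, 35.52 and 48.62 FPKM, lowest in pool 1. MUC1, a membrane mucin, was at 0.14, 0 and 0.13 FPKM.

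Genes of the response to damaged vesicles, the setting in which galectin-8 acts in human cells, had a median of 69.2 FPKM. The median over all genes of at least 1 FPKM was 12.5. All 16 list genes measured averaged at least 1 FPKM, as did 11570 of all 15675 rows. Of the 16, 9 were below LGALS8, which ranked 1472 among all 15675 rows. The membrane repair subunit CHMP4B was at 223 ± 19.8 and TSG101, of the same machinery, at 104 ± 5.67. CALCOCO2, the autophagy receptor that binds galectin-8 in human cells, was at 189.99, 170.55 and 180.08 FPKM, in each pool above LGALS8. The receptor SQSTM1 was at 101 ± 13.7.

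Among 23 other animal lectins measured, 19 reached 1 FPKM, as did 11570 of all 15675 rows. The median of those 19 was 7.72, below the 12.5 over all genes at that level. One exceeded LGALS3, the endoplasmic reticulum lectin chaperone CALR at 1396 ± 92.3, and none exceeded LGALS2. Few genes of any kind did, as LGALS3 ranked 157 and LGALS2 ranked 10 among all genes by mean. REG4, a secreted lectin of the gut, was at 699.33, 428.20 and 131.43 FPKM, highest in pool 1. The cargo receptor LMAN2 was at 129 ± 11.2 and the chaperone CANX at 117 ± 8.99.

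**Figure D4:**
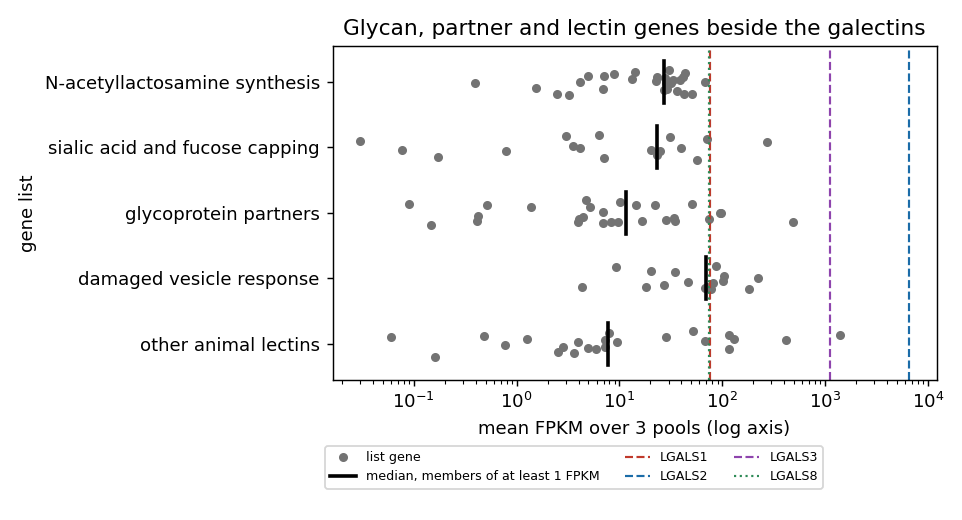
Mean FPKM over the 3 pools (log axis) of the genes in 5 lists related to galectins, as grey points with a black bar for the median of members of at least 1 FPKM, beside dashed or dotted lines for the 4 galectins. All points lie below LGALS2, which ranked 10 among all genes by mean, and 1, CALR, lies above LGALS3, which ranked 157.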

How the data were processed

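RNA was sequenced from 3 pools of the control arm. The authors deposited FPKM values per pool, per the file headers, and per the submitters' processing notes the tools were HISAT2 2.0.1, HTSeq 0.6.1, cutadapt 1.9.1 and DESeq2 with the build GRCg6a, no role or order being stated. The deposited read counts, treated as estimated counts, were unrelated to FPKM row by row (Pearson's r of log2 values over 15675 genes was 0.00904, 0.00634 and 0.00463 in pools 1, 2 and 3) and gave no result, so depth is unknown. The table's other 6 value columns belong to no labelled sample and were left out. FPKM already carry the authors' scaling, so very abundant genes lower the others.

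The log2(FPKM + 1) scale makes differences between low genes look smaller. No test between groups was possible. Members, lists and tests were chosen with earlier results of these data known. Percentages of marker sums and the comparison of LGALS2 with genes averaging 1000 FPKM or more were added after the values were seen. So were the counts of list genes above or below a galectin and the share of genes lowest in pool 1 and highest in pool 3. Named genes were the members, other galectin-type genes, the 3 nearest profiles per member, the 2 genes above and below LGALS2, up to 4 highest genes per list and chromosome neighbours. Other list genes, such as MGAT5, B4GALT1, FN1 and MUC1, were picked after their values were seen. Of 6 lists of galectin biology and 10 of cell type markers, 1 symbol matched by a RefSeq synonym. Gene names and neighbours came from RefSeq, assembly GRCg7b. Protein sequences were not compared here. Scripts were checked on simulated data. Alternatives were a pseudocount of 0.1, equal-sum and median-ratio scaling, other minimum values and comparison windows, and each pool left out. Python 3.11.15, numpy 2.4.6, pandas 2.3.3 and matplotlib 3.10.9 were used.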

Additional observations from a re-analysis of the deposited data

How the results depend on the processing

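Of 178 recomputed values of 36 results, 157 stayed within the spread between pools (for SDs and percentages, within 1.5 times) and 21 did not. Part of the 157 could not have moved. Leaving out a pool shifts a mean level or mean difference by less than the SD over all 3. Rescaling nearly cancels in a difference between genes of the same pool. The count therefore overstates how firm the results are. A scaling factor moves all genes of a pool alike, and LGALS2 passed its limit because its SD was near 0. With FPKM rescaled to equal sums its SD was 0.014 on the log2 scale, and its deviations in pools 2 and 3 were -0.014 and 0.014. With the median ratio the SD was 0.063, with deviations of 0.066 in pool 1 and -0.059 in pool 3, and 19.0% of comparison genes had a smaller SD, against 0 as deposited. On the deposited scale, the share over all genes of at least 1 FPKM was 0.104%. Deviations close to 0 changed sign by scaling, those of LGALS2 in pools 1 and 3 and that of LGALS8 in pool 3, at -0.0078 with the median ratio. With a pool left out, SDs ran from 0.36 to 1.11 for LGALS1, 0.00059 to 0.0066 for LGALS2, 0.058 to 0.56 for LGALS3 and 0.070 to 0.26 for LGALS8. The lowest was without pool 3, or pool 2 for LGALS8. The share with a smaller SD ran from 0 to 10.9% for LGALS2, from 33.3% to 97.3% for LGALS3 and from 24.0% to 88.3% for LGALS8. The difference LGALS1 minus LGALS8 ran from -0.52 without pool 3 to 0.32 without pool 1. The other 5 differences stayed above 0 in all 30 recomputations, which adds little to the values by pool. Each was above 0 in every pool, so leaving a pool out could not change its sign, and scaling barely alters such a difference. The median of the capping list ran from 20.9 to 24.0 FPKM with a pool left out. Over all measured members it was 7.09 FPKM and that of the glycoprotein partners 8.30. Over members of at least 5 FPKM these were 27.1 and 22.2, and that of other lectins 51.7. The medians at these other minimum values moved because different genes entered, while those with a pool left out used the same genes. No paired analysis was possible because all samples belong to 1 group.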
